A study of Mus musculus with 3 samples.

Results

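The genes that write, maintain and remove DNA methylation were examined in 3 mouse myoblast lines. The set held 10 genes of the 35562 with a gene name in the deposited files, given as a list of names: the DNA methyltransferases Dnmt1, Dnmt3a and Dnmt3b, their cofactor Dnmt3l, the maintenance factor Uhrf1 and its paralog Uhrf2, the Tet dioxygenases Tet1, Tet2 and Tet3, and the corepressor Trim28. All 10 were found, with 96 of the 120686 named transcripts. Myoblasts, the proliferating progeny of muscle satellite cells, had been derived from intraspecies (mouse-mouse) chimeras. The donor cells of these chimeras were iPSCs, reprogrammed from fibroblasts of the genotype Dmdmdx; Pax7-nGFP with a STEMCCA cassette. These iPSCs carry a dystrophin mutation and a nuclear GFP reporter driven by Pax7, and CRISPR/Cas9 editing had restored the dystrophin reading frame in 1 iPSC clone. All 3 lines, numbered 66, 67 and 72, share the genotype Dmdmdx; Pax7-nGFP and the edit, and they form 1 group with n = 3 and no control. The labels give no age, do not give the tamoxifen treatment, the host blastocyst or the animal behind each line, and do not say that the lines came from separate animals. The spread given here is therefore the spread between 3 cultures and may be partly technical.

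In mammals, a CpG methylated on both strands is left with a methyl group on the parental strand after replication. UHRF1 binds such hemimethylated sites and brings in DNMT1, which methylates the new strand. DNMT3A and DNMT3B methylate sites without that template, helped in germ cells by DNMT3L, a relative without catalytic activity. The TET enzymes oxidise 5-methylcytosine, which can lead back to unmethylated cytosine. TRIM28 (KAP1) is brought to DNA by zinc finger proteins and is known for keeping retroelements and imprinted loci methylated in early embryonic cells.

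Depth was similar in the 3 libraries, with 73274315, 66972426 and 70272367 estimated counts in lines 66, 67 and 72. Reads that match more than 1 transcript are shared out among them in the estimated count, which can therefore be a fraction. TPM is the estimated count per effective length of the transcript, scaled to 1000000 in each library, and gene levels are sums over transcripts. All 7 myoblast markers reached 10 TPM throughout. These included the satellite cell factor Pax7 with 136, 143 and 154 TPM and the myogenic factor Myod1 with 791, 702 and 579 TPM in lines 66, 67 and 72. Of 8 markers of cells removed by the sort or of other cell types, 7 were under 1 TPM in every line. The exception was Ly6a (SCA1), named here after its values were seen, with 2.97, 3.31 and 3.26 TPM of a sum over the list of 3.97, 4.02 and 4.43 TPM. The leukocyte gene Ptprc had at most 7 counts and the fibroblast gene Lum had 0. Besides Ly6a, the endothelial gene Pecam1 and Pdgfra, named here after its values were seen, were above 3 counts in every line. Pecam1 had 60.1, 35.1 and 74.1 estimated counts and Pdgfra 114, 94.3 and 67.4. Their means were 0.423 and 0.406 TPM. Of 11 pluripotency markers, 7 had at most 3 counts in every line, including Zfp42 and Dppa5a. The 4 others were above 3 counts in every line. Pou5f1 was the highest, with 9.46, 10.2 and 11.2 TPM, and Sox2, Esrrb and Nanog, named here after their values were seen, averaged 4.53, 1.45 and 0.293 TPM. Whether any of these counts came from the reprogramming cassette was not tested. The 7 markers of differentiated muscle summed to 1357, 1831 and 2599 TPM, lowest in line 66 and highest in line 72 for each of the 7, with Myog at 168, 222 and 310 TPM. The muscle genes Tnnt1, with 281, 339 and 658 TPM, and Actc1, with 281, 409 and 575 TPM, were the only genes of all 11 lists over 2-fold apart between lines on the log2(TPM + 1) scale, which understates the change of low genes. They are 2 of the 107 genes in the lists, which were not filtered by level. As far apart were 2.19% of all 25510 detected genes and 2.17% of the 8428 averaging 10 TPM or more. In these bulk samples, a difference in the share of differentiating or dividing cells and a difference in RNA per cell cannot be told apart.

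Dnmt1, Dnmt3a and Uhrf1 have more than 1 start in RefSeq, and the results below turn on which of these starts carried the counts. The 250 bases before an upstream and a downstream start of each are shown for this reason, 5′ to 3′ on the strand of the gene, from RefSeq on GRCm38.p6, with each CpG, the substrate of these enzymes, in capitals.
Dnmt1 upstream start, chr9:20959889-20960138, minus strand: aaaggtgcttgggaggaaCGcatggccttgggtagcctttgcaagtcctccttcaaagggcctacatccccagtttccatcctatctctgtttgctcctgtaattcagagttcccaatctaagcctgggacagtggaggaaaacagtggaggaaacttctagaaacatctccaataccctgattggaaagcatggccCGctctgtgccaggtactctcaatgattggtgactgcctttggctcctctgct
Dnmt1 second start, chr9:20952980-20953229, minus strand: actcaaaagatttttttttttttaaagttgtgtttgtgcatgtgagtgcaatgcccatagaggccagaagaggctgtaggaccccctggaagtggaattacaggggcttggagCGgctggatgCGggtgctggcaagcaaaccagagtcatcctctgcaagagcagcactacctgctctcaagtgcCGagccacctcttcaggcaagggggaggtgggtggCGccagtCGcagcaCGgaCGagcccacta
Uhrf1 upstream start, chr17:56303087-56303336, plus strand: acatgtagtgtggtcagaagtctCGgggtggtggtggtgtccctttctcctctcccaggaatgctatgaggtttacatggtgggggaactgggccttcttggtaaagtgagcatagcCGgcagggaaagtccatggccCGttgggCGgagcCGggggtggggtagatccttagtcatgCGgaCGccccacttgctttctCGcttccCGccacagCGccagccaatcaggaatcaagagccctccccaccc
Uhrf1 second start, chr17:56304063-56304312, plus strand: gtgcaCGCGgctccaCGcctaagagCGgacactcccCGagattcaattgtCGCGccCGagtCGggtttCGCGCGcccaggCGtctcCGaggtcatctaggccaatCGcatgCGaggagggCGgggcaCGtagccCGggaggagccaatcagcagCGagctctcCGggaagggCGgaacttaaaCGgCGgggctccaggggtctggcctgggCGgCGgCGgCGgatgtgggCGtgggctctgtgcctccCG
Dnmt3a upstream start, chr12:3806730-3806979, plus strand: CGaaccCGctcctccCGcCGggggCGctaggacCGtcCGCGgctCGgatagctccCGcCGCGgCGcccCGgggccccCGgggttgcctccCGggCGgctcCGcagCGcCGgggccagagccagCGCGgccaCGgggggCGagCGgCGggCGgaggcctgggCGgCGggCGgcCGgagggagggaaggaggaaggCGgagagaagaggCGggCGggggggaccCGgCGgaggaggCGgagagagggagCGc
Dnmt3a second start, chr12:3891494-3891743, plus strand: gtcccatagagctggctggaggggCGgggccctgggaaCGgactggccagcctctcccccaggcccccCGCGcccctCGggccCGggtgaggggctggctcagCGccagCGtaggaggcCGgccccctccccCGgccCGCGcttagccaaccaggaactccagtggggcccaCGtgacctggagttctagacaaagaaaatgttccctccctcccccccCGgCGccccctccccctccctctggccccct
The window before the upstream Dnmt1 start holds 2 CpGs, and the window before the second start, 6909 bases downstream, holds 7. Across the 32851 RefSeq windows of this length, the median was 6. The Uhrf1 windows, whose starts lie 976 bases apart, hold 10 and 30 CpGs. The Dnmt3a windows hold 38 and 15, with starts 84764 bases apart. Not shown are a Dnmt3a start 180 bases downstream of the upstream one, with 40 CpGs before it and counted with it below, and a Dnmt1 start 356 bases downstream of the second one, with 26 CpGs. Of the 17 windows of the 10 genes, 13 held more CpGs than the median window, from 7 before the second Dnmt1 start to 51 before the Tet2 start. The 4 others were the upstream Dnmt1 window and the 3 windows of Dnmt3l, with 5, 4 and 3 CpGs. The letters TTTCCCGC, TTTCGCGC, TTTGCCGC and TTTGGCGC, forms of the E2F consensus, were searched on both strands. They occurred in 1.86% of all windows and in 2 windows of these genes, the second Uhrf1 window above and the Dnmt1 window that is not shown. No other window of the 10 genes holds these letters, which says nothing about binding of a factor.

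The maintenance pair Dnmt1 and Uhrf1 was far above the de novo enzymes. Dnmt1 (chromosome 9, 20907209 to 20959888 on GRCm38) had 100.2, 138 and 127 TPM in lines 66, 67 and 72, a mean of 122 ± 19.3 TPM (SD, n = 3). Uhrf1 (chromosome 17, 56303321 to 56323486) had 96.9, 128 and 134 TPM, a mean of 119.8 ± 20.1 TPM (SD, n = 3). Both genes were lowest in line 66, and their ranges overlapped. In summed TPM, Dnmt1 was the higher of the pair in lines 66 and 67 and Uhrf1 in line 72. The mean log2 difference was 0.02 ± 0.09 (SD, n = 3), so the order of this pair was not resolved on that scale. Dnmt1 ranked above 94.8% and Uhrf1 above 94.7% of the 25510 detected genes, those with a TPM above 0 in any line. In CPM, estimated counts scaled per 1000000 without regard to length, line 66 was again the lowest, with 258, 322 and 300.3 CPM for Dnmt1 and 176, 225 and 219.7 CPM for Uhrf1. Dnmt1 was thus the higher in every line in CPM. With protein coding transcripts only, Uhrf1 was the higher in every line, with 90.8, 122 and 128 TPM against 71.3, 87.9 and 84.1 TPM. The order of this pair depends on the scale. Uhrf2 (chromosome 19, 30030513 to 30093722), a paralog that binds hemimethylated DNA but is not known to replace Uhrf1 in maintenance, had 31.2, 33.4 and 39.9 TPM. Uhrf1 exceeded Uhrf2 by 3.44 ± 0.370 times (SD, n = 3) in TPM, in 3 of 3 lines.

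Dnmt3a (chromosome 12, 3806007 to 3914443) had 13.7, 15.1 and 11.3 TPM, a mean of 13.4 ± 1.94 TPM (SD, n = 3). Dnmt3b (chromosome 2, 153649450 to 153687730) was close to 1 TPM, with 1.19, 1.21 and 0.802 TPM from 187, 185 and 145 estimated counts. Both de novo enzymes were lowest in line 72, and no value of one reached the range of the other. Of the summed TPM of Dnmt1, Dnmt3a and Dnmt3b, Dnmt1 made up 89.3 ± 2.16%, Dnmt3a 9.95 ± 1.93% and Dnmt3b 0.797 ± 0.228% (SD, n = 3). The Dnmt1 share was 87.0%, 89.4% and 91.3% in lines 66, 67 and 72. Dnmt3b shares 699 of its 31-base words with Dnmt3c, a rodent paralog of germ cells, and 86.5% of its words occur in no other gene, so part of the few Dnmt3b reads fit both genes. Dnmt3l (chromosome 10, 78041947 to 78063622) had 0 estimated counts in each of its 8 annotated transcripts in all 3 lines. A count of 0 allows up to 3 counts, or 0.0409, 0.0448 and 0.0427 CPM in lines 66, 67 and 72, and covers counting error only, since PCR copies were not told apart.

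All 3 Tet genes were detected at low levels. Tet3 (chromosome 6, 83362373 to 83459084) had 7.61, 7.78 and 9.02 TPM, a mean of 8.14 ± 0.770 TPM (SD, n = 3). Tet2 (chromosome 3, 133463679 to 133545139) had 6.06, 7.34 and 7.98 TPM, a mean of 7.13 ± 0.980 TPM (SD, n = 3). Tet1 (chromosome 10, 62804570 to 62908996), which is prominent in pluripotent cells, had 2.04, 1.96 and 2.31 TPM, a mean of 2.11 ± 0.185 TPM (SD, n = 3). Tet3 was above Tet2 in each line. Their ranges overlapped in summed TPM, but not with coding transcripts only, where Tet3 had 7.57 to 9.01 TPM and Tet2 3.16 to 4.43 TPM, nor in CPM, with 58.3 to 69.4 CPM against 19.97 to 25.8 CPM. Tet1 was below both other Tet genes in every line. Of the summed Tet TPM, Tet3 took 46.9 ± 1.46%, Tet2 41.0 ± 2.23% and Tet1 12.1 ± 0.774% (SD, n = 3). With coding transcripts only, Tet3 took 60.7 ± 1.92% and Tet2 28.2 ± 1.67% (SD, n = 3), and 43.7% of the summed Tet2 TPM lay on retained-intron transcripts.

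Trim28 (chromosome 7, 12999114 to 13031035) was the highest of the set at 492, 521 and 527 TPM, a mean of 513 ± 18.6 TPM (SD, n = 3), above 99.0% of detected genes. It was also the steadiest of the 9 genes with counts, with a coefficient of variation over lines of 3.62%. The other 8 lay between 8.81% for Tet1 and 21.4% for Dnmt3b. In CPM, Trim28 was again the lowest, with 1.53%, but Tet1 was the highest, with 16.1%, so the place of Tet1 depends on the scale.

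**Figure D1:**
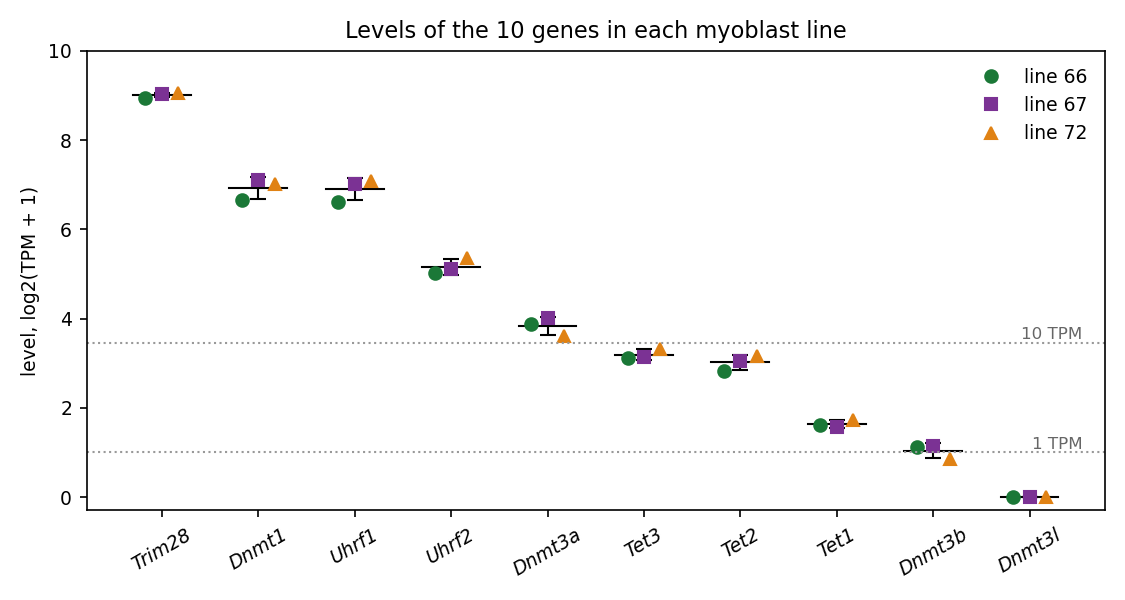
Level of each gene as log2(TPM + 1), with 1 symbol per myoblast line, the mean as a horizontal bar and the SD over 3 lines as a vertical bar; dotted lines mark 10 and 1 TPM. Trim28 stands highest, Dnmt1 and Uhrf1 lie at the same height, and Dnmt3l is at 0 in every line.

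From highest to lowest, the order of mean TPM was Trim28, Dnmt1, Uhrf1, Uhrf2, Dnmt3a, Tet3, Tet2, Tet1, Dnmt3b and Dnmt3l. In summed TPM, neighbours in this order had ranges that did not overlap, except Dnmt1 with Uhrf1 and Tet3 with Tet2. At least 10 TPM in every line was reached by 5 of the 10 genes (Trim28, Dnmt1, Uhrf1, Uhrf2 and Dnmt3a), as it was by 31.5% of detected genes. With the counts of a gene taken over the effective length of its coding transcript with the most counts, the number was 4, without Dnmt3a. At least 1 TPM in every line was reached by 8, all but Dnmt3b and Dnmt3l, against 47.1% of detected genes. Within-line differences on the log2(TPM + 1) scale were 3.09 ± 0.30 for Dnmt1 minus Dnmt3a, 2.80 ± 0.06 for Dnmt3a minus Dnmt3b and 1.75 ± 0.15 for Uhrf1 minus Uhrf2 (SD, n = 3 lines). They were 1.38 ± 0.15 for Tet2 minus Tet1 and 0.17 ± 0.11 for Tet3 minus Tet2 (SD, n = 3 lines). Each of these 5 differences was positive in 3 of 3 lines, and each had p = 0.25 and an adjusted p of 0.25 (two-sided exact sign-flip test, Benjamini-Hochberg over the 5), the smallest p that 3 lines allow.

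The levels of the de novo and Tet enzymes relative to each other depended on how the length of a gene was set. Short annotated transcripts add much TPM from few counts. With each gene's count set over the length of the coding transcript that held most of its counts, an alternative chosen after the data were seen, Dnmt3a had 5.78, 5.39 and 5.37 TPM. Tet3 then had 8.07, 8.38 and 9.80 TPM and was above Dnmt3a in all 3 lines, against 0 of 3 lines with summed TPM. On the same scale, in line 67, Tet2 was also above Dnmt3a and Dnmt3b was above Tet1. Dnmt1 exceeded Dnmt3a on this scale by 17.7 ± 2.72 times (SD, n = 3), against 9.22 ± 2.0 times with summed TPM. With protein coding transcripts only, Trim28 had 102, 101 and 101 TPM and Uhrf1 had 90.8, 122 and 128 TPM, so that Uhrf1 was above Trim28 in lines 67 and 72.

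Annotated transcripts were read on both scales for this reason, as the share of a gene's TPM and the share of its estimated counts. The coding transcript of Trim28, Trim28-201 (834 codons), held 61.6 ± 1.11% of the counts of the gene but 19.7 ± 0.835% of its TPM (SD, n = 3). The rest of the TPM lay mainly on Trim28-210, an 851-base processed transcript that starts upstream of the RefSeq start, with 37.0 ± 1.49%, and on the 565-base retained-intron transcript Trim28-203, with 31.5 ± 0.389% (SD, n = 3). Trim28-210 received 5479, 5678 and 5734 estimated counts in lines 66, 67 and 72, and 119 of its 31-base words occur in no other transcript. Of the 9 genes with counts, Trim28 had the lowest share of TPM on coding transcripts.

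**Figure D2:**
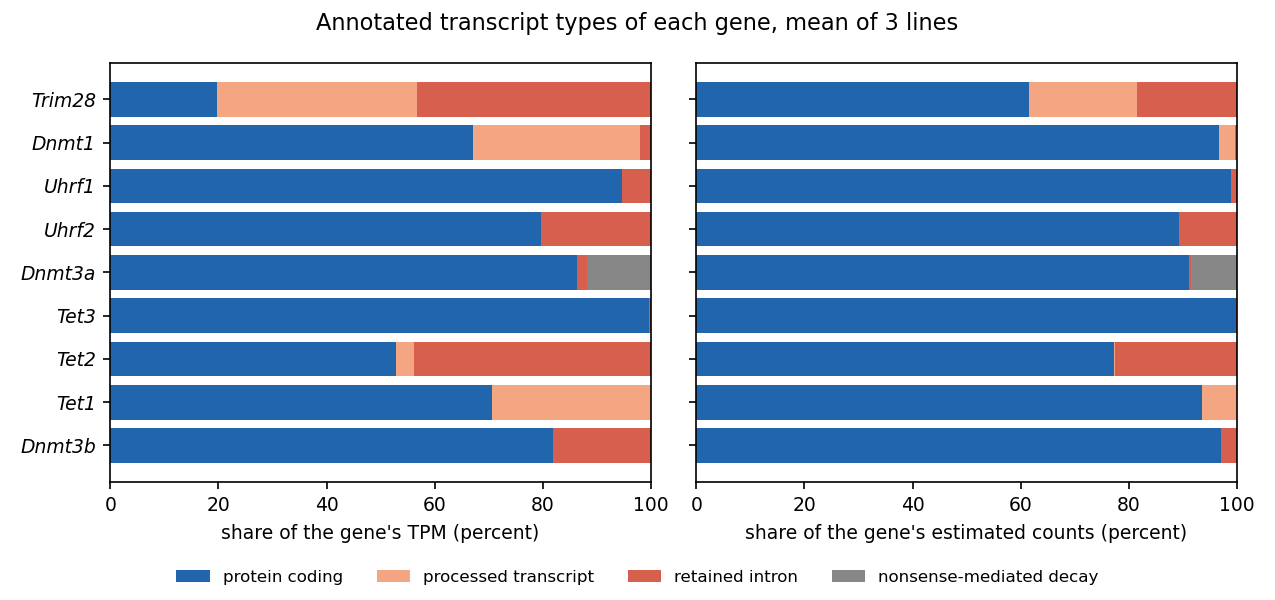
Mean share over 3 lines of each annotated transcript type in a gene's TPM (left) and in its estimated counts (right), in percent, for the 9 genes with counts. The protein coding part of Trim28 is 19.7% on the left and 61.6% on the right, and for Tet3 it is at least 99% on both.

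Counts of Dnmt1 lay mainly on 2 of its starts. Dnmt1-201, which begins at the second start and encodes the 1620-codon protein of somatic cells, held 61.9 ± 1.2% of the counts of Dnmt1 (SD, n = 3). Dnmt1-202 begins at the upstream start and carries an open reading frame of 1501 codons, the arrangement described for the oocyte form. It received 6593, 7571 and 6954 estimated counts, or 35.0%, 35.2% and 33.1% of the gene, in lines 66, 67 and 72. This share of counts was nearly the same in the 3 lines, with an SD of 1.16 percentage points. Of the TPM of Dnmt1, Dnmt1-202 held 26.2%, 23.9% and 23.1%. All 154 words of Dnmt1-202 that occur in no other transcript start in its first exon of 156 bases. The 163 such words of Dnmt1-201 also start within its own first exon of 272 bases. The pair differ outside these exons as well, since the rest of Dnmt1-201 is slightly longer (5367 against 5248 bases with the first exon). Words shared with other transcripts of the gene were not counted here. The part of sequence outside the first exons in the split was not tested. A short processed transcript, Dnmt1-205 (607 bases), held 30.98 ± 3.91% of the TPM of Dnmt1 but 2.87 ± 0.477% of its counts (SD, n = 3).

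Dnmt3a is known in a long form and in a short form from an internal promoter, the latter being the form of embryonic stem cells. Transcripts of the upstream start, which include Dnmt3a-218 with the 908-codon long form, held 73.6%, 70.5% and 78.7% of the estimated counts in lines 66, 67 and 72. Transcripts of the second start held 15.4%, 13.8% and 12.7%, from 355, 272 and 253 counts. Of the TPM, the upstream start held 32.5%, 29.4% and 43.2% and the second start 22.7%, 17.1% and 21.02%. The upstream start was the higher in every line on both scales. All counts of the second start fell on Dnmt3a-205 (2328 bases, 689 codons), while the longer transcript Dnmt3a-203 of the same start and the same 689 codons, named here after its values were seen, had 0 counts. Dnmt3a-205 holds 16 words found in no other transcript, so few reads could tell it apart. Of the TPM, the largest share, 26.8 ± 6.41% (SD, n = 3), fell on Dnmt3a-210, a 501-base transcript with 2.37 ± 0.758% of the counts. The remaining transcripts with at least 10% of the TPM were Dnmt3a-204, with 10.5%, and Dnmt3a-215, annotated for nonsense-mediated decay, with 10.6%.

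Uhrf1 counts fell on its upstream start at 80.0%, 91.8% and 83.0% and on its second start at 18.8%, 7.02% and 16.1% in lines 66, 67 and 72. Of the TPM, the upstream start held 58.8%, 64.5% and 56.2% and the second start 34.9%, 30.3% and 39.2%. The second start was lowest in line 67 on both scales. Its transcripts Uhrf1-204 and Uhrf1-202, named here after their values were seen, had 983, 397 and 1360 and 1050, 65.3 and 428 estimated counts. Uhrf1-204 has no word of its own and Uhrf1-202 has 35. As groups, the transcripts of the upstream and second start hold 239 and 156 words that other transcripts of the gene lack. The part of this in the difference of line 67 was not tested. The main transcript, Uhrf1-201 (782 codons), held 73.2 ± 3.57% of the counts and 51.3 ± 3.08% of the TPM (SD, n = 3). A 529-base transcript of the second start, Uhrf1-207, held 27.3 ± 4.19% of the TPM but 3.80 ± 0.695% of the counts (SD, n = 3). In Uhrf2, the full-length Uhrf2-201 (803 codons) held 79.6 ± 3.46% of the TPM and 89.4 ± 1.32% of the counts (SD, n = 3).

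**Figure D3:**
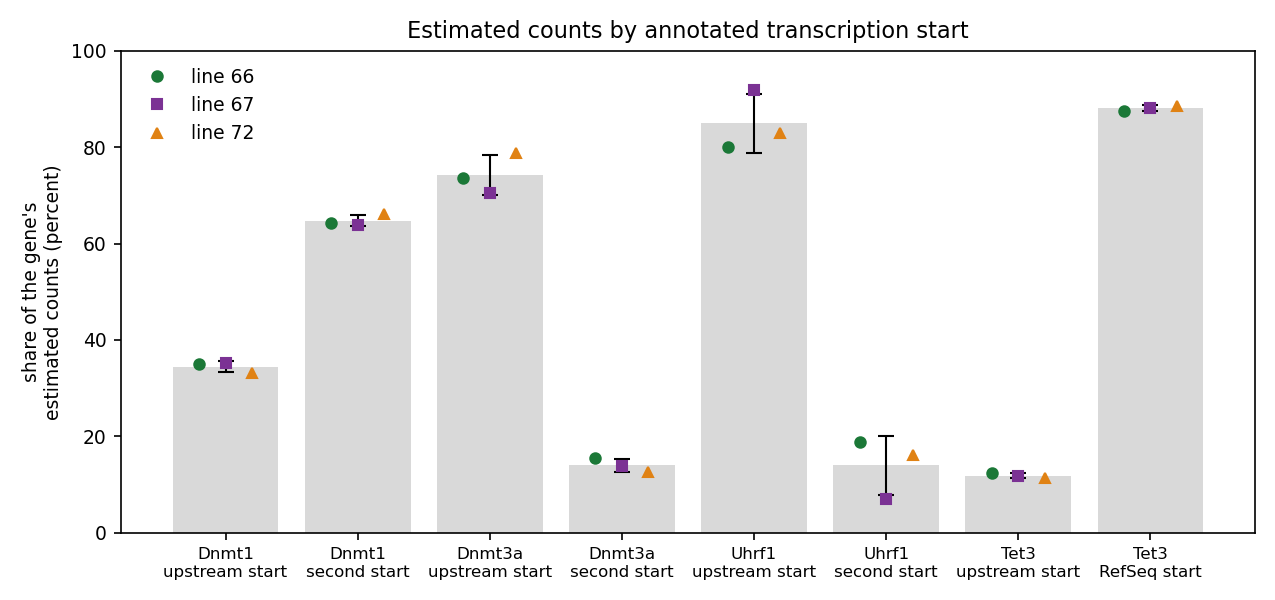
Share of each gene's estimated counts (percent) on transcripts of the named starts, as a bar for the mean of 3 lines with its SD and 1 symbol per line. Upstream and second refer to the starts in RefSeq, and for Tet3 the upstream start is one in GENCODE alone. The upstream Dnmt1 start lies between 33.1% and 35.2% in every line, and the shares of the Uhrf1 starts are the ones that differ most between lines.

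Tet3 is known in forms with and without a CXXC domain, a zinc finger that binds CpG-rich DNA. Tet3-202 (1668 codons), from the RefSeq start, held 88.0 ± 0.672% of the counts and 80.7 ± 1.10% of the TPM (SD, n = 3). Tet3-203 (1803 codons), from an upstream start, held 11.9 ± 0.565% of the counts and 19.0 ± 0.889% of the TPM (SD, n = 3), from 531, 477 and 551 counts. These shares were nearly the same in the 3 lines. The words of Tet3-202 found in no other transcript start between positions 5206 and 10874 of its 10904 bases, none in its first exon. Those of Tet3-203 start at positions 1 to 832. Reads of the later part can therefore be given to Tet3-202 whichever start was used, and the part of this was not tested. For Tet1, 87.3 ± 6.53% of the counts lay on Tet1-206, with 2039 codons the long form, and 36.7 ± 7.67% of the TPM (SD, n = 3). Tet1-202, a processed transcript, and the 581-base Tet1-203 held 29.4 ± 5.96% and 14.9 ± 12.0% of the TPM (SD, n = 3) from at most 44 counts each. The share of Tet1-203 was 8.04%, 7.86% and 28.7% in lines 66, 67 and 72, so its mean rests largely on line 72. Tet2 was split between Tet2-201 (1912 codons) and Tet2-204 (1920 codons) in a way that differed between lines. Tet2-201 received 617, 1283 and 533 estimated counts and Tet2-204 received 507, 55.2 and 666 in lines 66, 67 and 72. Line 67 stood apart, although the summed Tet2 count of that line was near the others, at 1718 against 1456 and 1595. These transcripts have 56 and 50 words of their own, and the part of this in the split was not tested. The retained-intron transcripts Tet2-210 and Tet2-208 held 18.8 ± 1.17% and 15.2 ± 0.481% of the TPM (SD, n = 3). For Dnmt3b, Dnmt3b-209 (839 codons) held 53.3 ± 6.90% of the counts and Dnmt3b-206 (776 codons) 24.1 ± 14.0% (SD, n = 3), with no word of its own in either.

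No gene of the set was over 2-fold apart between any 2 lines on the log2(TPM + 1) scale. Of the 8428 genes averaging 10 TPM or more, 2.17% were over 2-fold apart, against 0 of the 5 members among them. For genes averaging 1 TPM or more, the background was 4.05% of 12528 genes, against 0 of 9 members. At 1.5-fold, the background was 9.03% and 14.2% under the same filters, again with 0 members. These counts are small, and with a background of this size few members would be called in any case. The median range between lines, on the log2(TPM + 1) scale, was 0.39 for the 5 members averaging 10 TPM or more and 0.23 for all genes under that filter. With at least 1 TPM it was 0.34 for 9 members and 0.26 for all genes. On this scale, the widest ranges were those of Uhrf1, with 0.47, and Dnmt1, with 0.45, both from line 66 as the lowest line. In log2(CPM + 1), Tet1 had the widest range, with 0.41, against 0.35 for Uhrf1 and 0.32 for Dnmt1. As a plain ratio of TPM, Dnmt3b was the widest at 1.51-fold, against 1.39-fold for Uhrf1 and 1.37-fold for Dnmt1.

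Line 66 was the lowest line for many genes, with 47.7% of the 8428 genes averaging 10 TPM or more and 44.2% of the 12528 averaging 1 TPM or more. Genes of DNA replication and division were among them. All 10 genes of the S-phase and division list were lowest in line 66, and their summed TPM was 1090, 1596 and 1445 in lines 66, 67 and 72. Rrm2, a subunit of ribonucleotide reductase, had 321, 614 and 494 TPM, and the proliferation marker Mki67 had 35.6, 64.1 and 54.3 TPM. Of the partners of maintenance, 6 of 7 were lowest in line 66, with summed TPM of 549, 693 and 720. Line 66 was also the lowest for 7 of 7 markers of differentiated muscle and 6 of 8 methyl-CpG readers. Among genes averaging 1 TPM or more, it was the lowest for 5 of 8 Trim28 partners, 4 of 7 methyl donor enzymes, 4 of 7 myoblast markers and 4 of 15 demethylation and base excision partners. Pcna, the sliding clamp to which DNMT1 binds, had 281, 366 and 380 TPM, and Cdca7l, the lowest, had 17.4, 22.6 and 25.4 TPM. The part of cell division in the lower Dnmt1 and Uhrf1 of line 66 was not tested. Of the other members, Uhrf2, Tet2 and Tet3 were also lowest in line 66, in TPM and in CPM, Tet1 in line 67, and Dnmt3a and Dnmt3b in line 72. Trim28 was lowest in line 66 in summed TPM, but its coding TPM was highest there and its CPM was lowest in line 72. The markers of differentiated muscle, highest in line 72, move the other way from the summed TPM of Dnmt3a and Dnmt3b in that line. Their part was not tested either, and in CPM the difference of Dnmt3a between lines 67 and 72 was small.

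**Figure D4:**
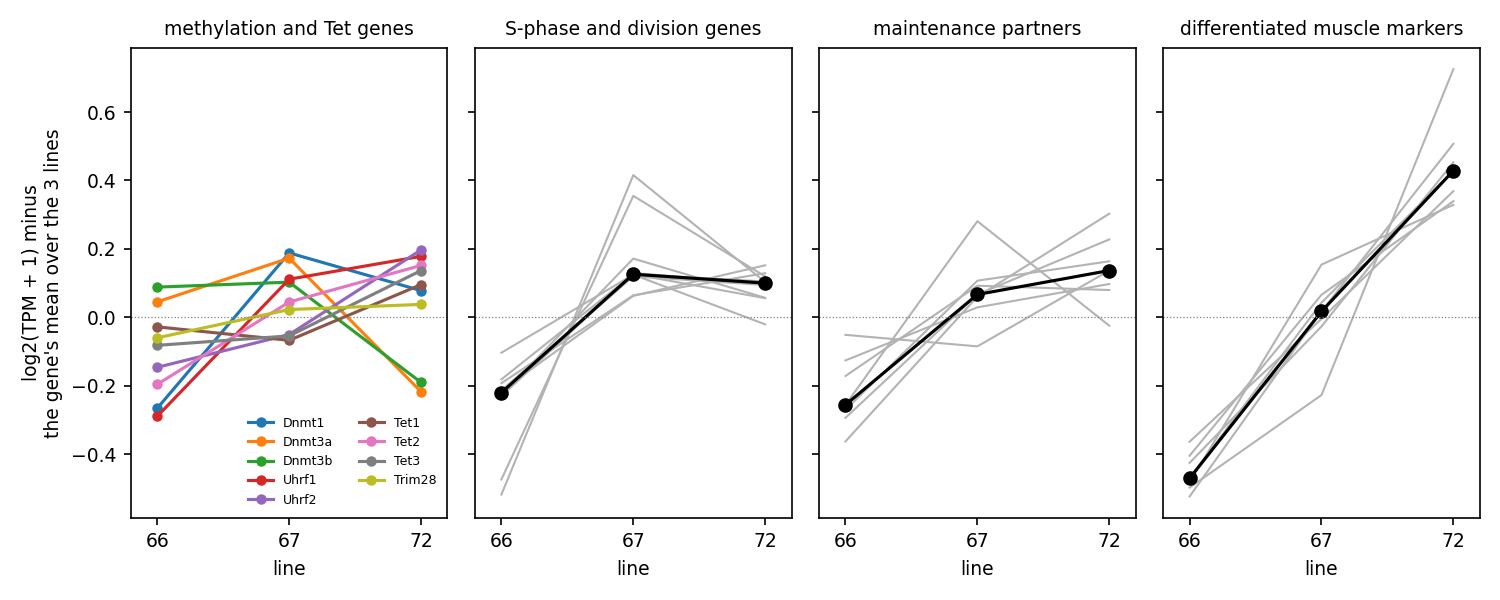
Level of each gene in each line as log2(TPM + 1) minus its mean over the 3 lines, for the 9 genes of the set with at least 1 TPM on average (left) and for 3 gene lists (grey, with the list's median in black). Strokes join the values of 1 gene, and the lines have no order. Dnmt1 and Uhrf1 lie lowest in line 66, as do all 10 S-phase genes, and Dnmt3a and Dnmt3b lie lowest in line 72.

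Chromosome 10 carries Tet1 and Dnmt3l, and line 66 was shifted upward over this chromosome, by a median log2 ratio of 0.28 across 427 genes that averaged 10 TPM or more. Such ratios set a line against the mean of the others on the log2(TPM + 1) scale, and were centred on the median of all 8428 genes, which was -0.05 in line 66. For the genes of chromosome 10, the centred median was -0.09 in line 67 and -0.18 in line 72. The ratio of Tet1 itself was 0.01 in line 66, or -0.04 without the centring. Without correction for length, Tet1 had 8.86, 6.40 and 7.99 CPM in lines 66, 67 and 72, so line 66 was the highest in CPM and line 72 in TPM. On chromosome 6, the median of line 72 was 0.15 and that of Tet3 was 0.14. The chromosomes of Dnmt1 and Uhrf1 were near 0 in line 66, at -0.04 and 0.02, where the genes themselves were at -0.34 and -0.38, or -0.40 and -0.43 without the centring.

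Of 8 genes listed as readers of methylated DNA, all had at least 1 TPM and 6 at least 10 TPM in every line. Mbd3, a subunit of the NuRD complex that is related to the readers but is not known to prefer methylated CpG itself, was the highest with 194 ± 11.2 TPM, and Mbd4, a glycosylase that acts on mismatched thymine, the lowest with 4.35 ± 0.682 TPM (SD, n = 3). Zbtb38, named here after its values were seen, had 44.5, 87.8 and 49.0 TPM, with line 67 the highest. Of 8 enzymes of the methyl donor cycle, 7 had at least 1 TPM in every line. Mat2a, the methionine adenosyltransferase of most tissues, had 263 ± 17.2 TPM (SD, n = 3), and Mat1a, its liver paralog, had 0 counts.

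Of 19 partners of demethylation and base excision repair, 15 had at least 1 TPM and 12 at least 10 TPM in every line. Idh2, a mitochondrial source of the cosubstrate of the TET enzymes, was the highest with 217 ± 23.6 TPM (SD, n = 3), and Dppa3, a factor of oocytes and early embryos, had 0 counts. Tdg, the glycosylase that removes oxidised methylcytosine, named after its values were seen, had 107, 99.97 and 81.9 TPM, lowest in line 72. Tdg lies on chromosome 10, whose median ratio was likewise highest in line 66 and lowest in line 72, and its part was not tested. All 8 Trim28 partners had at least 10 TPM in every line, from Zfp809, a zinc finger protein that binds retroviral sequence, with 15.9 ± 1.69 TPM, to the heterochromatin protein Cbx3 with 471 ± 82.6 TPM (SD, n = 3). Zfp57, the zinc finger protein of imprinted loci, named after its values were seen, had 48.9, 37.8 and 42.2 TPM.

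Germline genes that are known to be silenced by promoter methylation in somatic cells were low. Among detected genes, which leave out those with no counts, 47.1% had at least 1 TPM in every line. The rest fell short of that level in at least 1 line. All 14 germline genes were under 1 TPM in every line. Their summed TPM was 0.912, 0.493 and 1.38, and 6 had at most 3 counts in every line. Mael, Stk31 and Tex101 had 0 counts throughout. The genes above 3 counts in all 3 lines were Ddx4, an RNA helicase of germ cells, with 16, 12 and 15 counts, and Tdrd1, a piRNA pathway gene, with 92.7, 21.3 and 95.0 estimated counts. Tdrd1 was the highest of the list at 0.314 ± 0.186 TPM (SD, n = 3), and its counts were not whole. DNA methylation itself was not measured, and these levels do not report on it.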

How the data were processed

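RNA-seq libraries of 3 edited Dmdmdx; Pax7-nGFP myoblast lines (stranded, poly-A-enriched) were used as 1 group, with the line as the replicate. For each transcript, the authors deposited an estimated count, with no further normalization, and a TPM value. The submitters' processing notes name bcl2fastq 2.20, fastp 0.20, kallisto 0.46.1 and the build GRCm39. The annotation and the strand setting are not given in the sources used here. The deposited tables hold no coordinates. Names, types and coordinates came from GENCODE release M21 (GRCm38) by transcript identifier, matching 120686 of 121798 transcripts; the 1112 others (0.493% to 0.535% of counts) were left out. The lengths of all 96 transcripts of the set matched this release. Promoter windows came from RefSeq (GRCm38.p6), and all 10 genes had one. A transcript was assigned to a start within 300 bases.

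TPM and estimated counts were summed per gene; levels were given as log2(TPM + 1). With 1 group, no comparison between conditions was possible. Pairs of genes were compared within lines by exact sign-flip tests. With 1 library per line, folds between lines have no p-value. Total counts per library bound the precision, and 3 counts were used as the limit that a count of 0 allows. Uniqueness of sequence was measured with 31-base words on both strands. Alternatives were a pseudocount of 0.1, coding transcripts only, CPM, TMM scaling (edgeR) and DESeq2 size factors (both on estimated counts), thresholds of 1 TPM and 1.5-fold, leaving out each line, and, added later, the length of the main coding transcript. The fold call and sign-flip test were tested on simulated data.

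The members and the gene lists (107 genes in 11 lists) were chosen with earlier results of these data known. Genes named were the members, transcripts with at least 10% of a member's TPM, the highest and lowest gene of each pathway list, list genes over 2-fold apart on the log2(TPM + 1) scale (2 muscle markers), germline genes above 3 counts in every line, and defining markers; exceptions are stated. Scaling used DESeq2 1.42.0 and edgeR 4.0.16 under R 4.3.3. All else used pandas 2.3.3, numpy 2.4.6, scipy 1.17.1 and, for plots, matplotlib 3.10.9 under Python 3.11.15.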

Additional observations from a re-analysis of the deposited data

Results flagged for a closer look

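Among 14 germline genes outside the comparisons, 2 had counts above the limit that a count of 0 allows (3 counts) in all 3 lines. Ddx4 had at least 12 counts and Tdrd1 at least 21.3 estimated counts in each line. Both were under 1 TPM, and no library of another cell type was analysed here to set beside them. The groups hold 3 libraries, too few to look for an outlying sample.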

How the results depend on the processing

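No paired analysis was possible because all libraries belong to 1 group, with no other group to pair them with (genes were paired within lines). The number of members with at least 10 TPM in every line was 5, but 8 with a threshold of 1 TPM and 4 with the length of the main coding transcript. The 5 pair differences kept their sign under every alternative run, but not their size: Tet3 minus Tet2 went from 0.17 to 0.93 with coding transcripts only, 0.72 with the length of the main coding transcript and 1.42 in CPM, and Dnmt3a minus Dnmt3b from 2.80 to 1.68 with that length and 3.54 with a pseudocount of 0.1. No member was over 2-fold apart with a pseudocount of 0.1, TMM scaling, DESeq2 size factors, a threshold of 1.5-fold, other filters, coding transcripts only, the length of the main coding transcript or a line left out. The shares of all genes called were 2.38%, 2.12%, 2.12% and 9.03% for the first 4, and 4.05% and 2.19% with a filter of 1 TPM and with all detected genes. They were 2.11% and 2.21% for the 2 transcript settings. Without line 66, 67 or 72 the share fell from 2.17% to 0.82%, 1.29% or 1.18%. At such shares, few of the 5 to 9 members would be called in any case. Of the 10 mean levels, 6 moved by more than 1 SD over lines with the length of the main coding transcript (an alternative chosen after seeing the data) and 5 with coding transcripts only. CPM and a pseudocount of 0.1 change the scale itself, so moves of a level under them say nothing about stability. The shares of the highest transcript moved with estimated counts in place of TPM for 9 of 9 members. Leaving out 1 of 3 lines cannot move a mean by 1 SD, so it says nothing about stability here. The share of Tet2-201 was 21.6% of the TPM of Tet2 without line 67 and 36.8% without line 72. With 3 lines no sign-flip p can fall under 0.25. At 145 to 187 counts, Dnmt3b has a counting error of 7.62%, and at 0 counts Dnmt3l was not detectable at this depth.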
